A study of Mus musculus with 20 samples.

Results

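Treg and naive CD4 T cells of immunised peripheral lymph nodes (pLN) were compared on 6 of the 20 arrays of the series, 3 of Treg and 3 of naive T cells. The members were taken from the source labels alone: every pLN array labelled Treg or Tnaive, d12 or d25, was used. The strain was B6.Cg-Foxp3<tm1Mal>, in which an EGFP reporter follows Foxp3, so all groups carried the same allele. Mice of both sexes, 8 to 14 weeks old, received keyhole limpet hemocyanin (KLH) with alum under the skin, and, by the labels, cells of 8 to 15 mice were pooled for each sort (the study's statistics section gives a lower number). Naive T cells were sorted as CD4+ GFP- PD1- GL7- and Treg cells as CD4+ GFP+ PD1- GL7-, so the gates differed in the Foxp3 reporter alone. The PD1 gate of both is also given as PD1lo in the study's text. No gate on CD44 is described for either fraction, and "naive" therefore means Foxp3-negative cells without the follicular markers PD1 and GL7. Each cell type was represented by 1 array of d12 on slide 1, 1 of d12 on slide 2 and 1 of d25 on slide 3, and the Treg and naive arrays of a slide had the same RNA input. The series' design text counts 3 experiments of d12 and 2 of d25, of which 2 and 1 were analysed here. TFH cells (GFP- PD1hi GL7+) and TFR cells (GFP+ PD1hi, GL7+ or GL7-) of immunised pLN, 3 arrays each, were hybridised on the same slides and were used where the regulatory and the conventional lineages were set against each other inside and outside the follicular gate.

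Treg cells are the CD4 T cells that restrain immune responses. Their identity is set by the transcription factor Foxp3, and they depend on IL-2 made by other T cells, which they capture through a high-affinity receptor whose alpha chain, CD25, is encoded by Il2ra. In lymph nodes part of them circulates like naive T cells, with CCR7 on the surface, while another part has the features of antigen-experienced cells and carries receptors for inflamed tissue.

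Values are probe intensities on a linear scale after quantile normalisation, in arbitrary units with a floor at 20, and 3 values in a row are always given in the order slide 1, slide 2 and slide 3 (d12, d12 and d25). Differences are log2 Treg minus naive with their standard error (SE) from limma, with the slide as a block. A probe was tested if it was detected on all 3 arrays of at least 1 of the cell types, and a gene was called if its adjusted p was below 0.05 and its log2 difference at least 1 in size. A gene that was not detected in 1 cell type has only a lower bound of its fold, written as "at least", set by the dimmest signal that counted as detected or, where it was higher, by the probe's own signal. Genes of that kind passed the detection filter through 1 cell type alone, so list counts and medians that include them are descriptions. Their log2 differences, SEs and adjusted p-values rest, in the other cell type, on signals below background or at the floor.

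The 6 arrays detected between 43.0% and 52.0% of the 39429 probes, had median local backgrounds of 36 to 76 and held no saturated probe. Probe intensities correlated between 0.981 and 0.993 among the naive arrays and between 0.975 and 0.988 among the Treg arrays (Pearson's r of log2 values over probes). All 9 measured pan T cell markers were detected on every array, and none was called between the cell types. Of 8 tested B cell markers none was called, with summed levels of 6621 to 18730 on the naive and 15919 to 23988 on the Treg arrays (7 to 11 and 7 to 10 of 13 markers detected). Of 10 tested myeloid markers 1 was called, Fcgr3, an Fc receptor for IgG, at 638, 464 and 400.4 in naive and 77.9, 145 and 65.1 in Treg cells (log2 difference -2.45, SE 0.37, adjusted p = 0.00163), and the summed list lay at 112485 to 122608 in naive and 95136 to 110869 in Treg cells. No tested marker of CD8, NK and gamma-delta cells (3), stroma (2) or erythroid cells (2) was called. The naive array of slide 1 stood apart in its effector transcripts, summing to 28675 over 13 effector and memory markers, against 45487 and 51636 on the other naive arrays. The Treg array of slide 1 stood apart as well, in the other direction, at 168244 against 117518 and 118467 on the other Treg arrays. Il2, Gcnt1, Fut7, S100a4, S100a6, Cxcr3 and Cd44 are given with and without slide 1. In pooled sorted cells, fewer cells with a transcript and less of it per cell cannot be told apart, and p-values measure the spread between these pools.

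Across 11381 tested genes 795 were called (6.99%), 554 of them higher in Treg cells (4.87%) and 241 lower (2.12%). Counts of called list members given below are to be read beside these shares. The median difference over all tested genes was -0.03. The called genes kept their sign on every slide without exception, and 588 of them differed by at least 1 on each slide. The 3 Treg and 3 naive values did not overlap for 778 called genes (97.9%), beside 31.2% of all tested genes. A size of at least 4-fold was reached by 308 called genes (241 higher and 67 lower) and one of at least 16-fold by 44 (38 higher and 6 lower). The higher side also held most genes that the other cell type did not detect at all, 105 against 21 on the lower side.

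**Figure D1:**
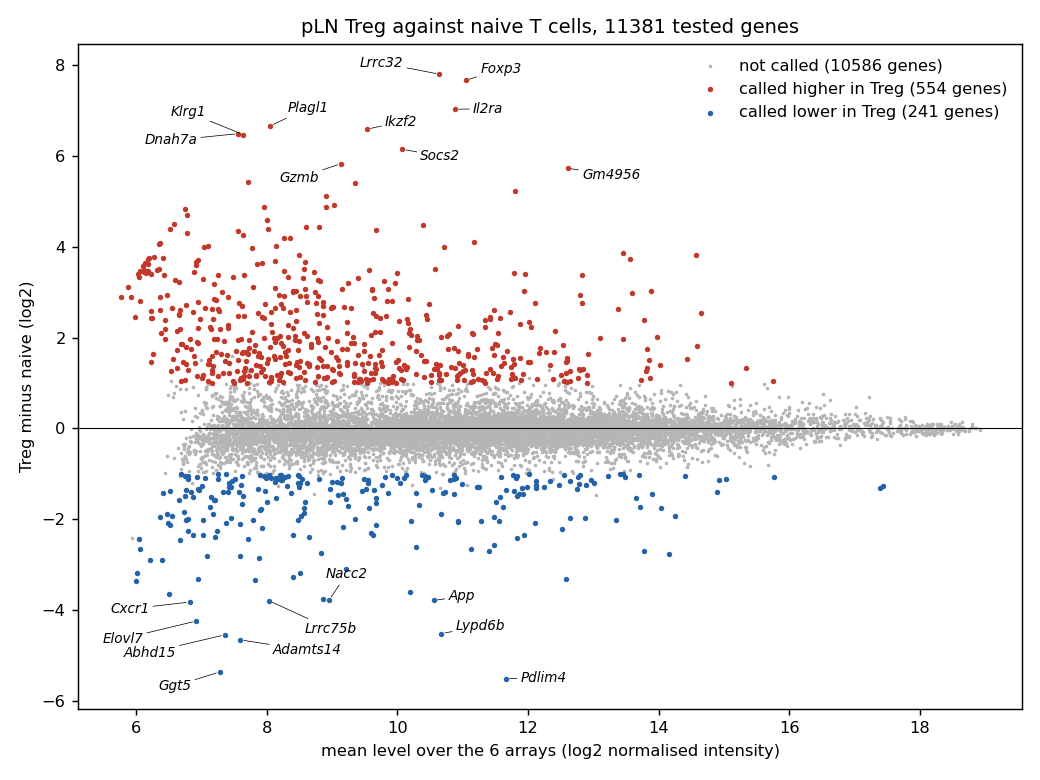
Log2 difference Treg minus naive (y axis) against the mean log2 intensity of the 6 arrays (x axis), 1 point per tested gene, called genes in red (higher) or blue (lower) and the 10 leading genes of each side named. The 554 genes called higher spread up to Lrrc32 (7.80), further than the 241 called lower spread down to Pdlim4 (-5.51).

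The leading genes on the higher side were those of the Treg programme. Foxp3, used for the sort through its reporter, had intensities of 35482, 30113 and 25646 in Treg cells and 191, 122 and 141 in naive T cells. Since the reporter defined the fractions, this 203-fold difference (log2 7.66) is a check of the labels, which it passed on every slide. Lrrc32, which encodes GARP, the surface anchor of latent TGF-beta, was at 25415, 24784 and 21617 in Treg and 144, 76.1 and 112 in naive cells, where 1 of 3 arrays detected it (log2 difference 7.80, SE 0.26, adjusted p = 3.3e-07). Il2ra was at 28281, 20247 and 17553 against 209, 105 and 206 (log2 difference 7.03, SE 0.24, adjusted p = 3.57e-07). For these 3 genes the dimmest Treg array exceeded the brightest naive array by far more than the arrays of a cell type differed among themselves.

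Of 19 tested genes of the Treg identity list all 19 were called higher, with a median log2 difference of 4.10, and 11 were called where probes had to be detected on all 6 arrays. Ikzf2, encoding the transcription factor Helios, was at 7319, 7699 and 6850 in Treg cells and was detected on no naive array (40.5, 117 and 91.9), a difference of at least 88.6-fold (log2 difference 6.59, SE 0.29, adjusted p = 1.64e-06). Plagl1, a zinc finger transcription factor, was at 3484, 2279 and 2383 against 23.3, 39.4 and 20, at least 35.1-fold (log2 difference 6.66, SE 0.44, adjusted p = 1.41e-05), but its 3 tested probes ranged from 0.20 to 6.68. The groups were separated on every slide in both cases. Summed over the 20 genes of the list, the level was 302788 to 346385 on the Treg arrays and 45276 to 47101 on the naive arrays.

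Promoter sequences of genes on either side of the comparison are shown for Foxp3, Tnfrsf18 and Il7r, picked because they held a motif of the STAT family. The IL-2 signal transducer STAT5 belongs to this family. Windows of Il2ra, Cish, Socs1, Pim1, Ctla4, Tnfrsf4 and Pdlim4, and of the other Foxp3 start, were also searched and did not hold it. Each printed sequence is the stretch of 250 bases before a transcription start in RefSeq (GRCm38.p6). It runs 5′ to 3′ on the strand of the gene, with the match to TTCNNNGAA in capitals. Tnfrsf18 encodes the TNF receptor GITR and Il7r the alpha chain of the IL-7 receptor. Their positions are chrX:7580233-7580482 (plus strand) for the second of the Foxp3 starts in RefSeq, chr4:156026072-156026321 (plus strand) for Tnfrsf18 and chr15:9529877-9530126 (minus strand) for Il7r.
Foxp3: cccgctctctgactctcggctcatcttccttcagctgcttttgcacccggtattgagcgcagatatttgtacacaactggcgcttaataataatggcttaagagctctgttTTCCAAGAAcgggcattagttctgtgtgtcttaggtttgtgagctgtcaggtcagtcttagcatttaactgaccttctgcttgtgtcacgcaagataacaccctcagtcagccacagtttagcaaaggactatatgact
Tnfrsf18: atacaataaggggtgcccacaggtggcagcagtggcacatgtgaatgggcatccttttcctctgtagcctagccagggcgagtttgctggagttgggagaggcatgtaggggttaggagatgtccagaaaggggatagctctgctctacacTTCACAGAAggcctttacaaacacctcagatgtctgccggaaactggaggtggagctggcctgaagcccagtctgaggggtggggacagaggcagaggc
Il7r: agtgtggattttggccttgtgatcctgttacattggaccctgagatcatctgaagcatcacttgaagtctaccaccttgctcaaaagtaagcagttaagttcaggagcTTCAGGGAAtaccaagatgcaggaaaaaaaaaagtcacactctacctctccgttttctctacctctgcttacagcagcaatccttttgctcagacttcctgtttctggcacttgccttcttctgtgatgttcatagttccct

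The match lay 139 to 131 bases before the start in Foxp3, 99 to 91 in Tnfrsf18 and 142 to 134 in Il7r. This motif, which reads the same way on both strands apart from its free centre, was held by 7.02% of all 32851 promoter windows of that length, 7.32% of the 8743 tested genes with a window, 10.2% of 421 genes called higher (43) and 5.56% of 180 genes called lower (10). A forkhead motif, TGTTTAC on either strand, was held by 3.17% of all windows and 2.8% of the tested genes with a window (245). Among genes called higher the share was 4.75% (20), and among genes called lower 3.33% (6). For both motifs a gene counted if any of its windows held the motif. None of the 3 promoters shown held the forkhead motif. Both are counts of letters in a short window and not of bound sites. Tnfrsf18 was higher in Treg cells, Il7r lower, so the genes with the printed match lay on both sides.

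Genes of the IL-2 receptor and of its STAT5 response made up the next group, with 6 of 16 tested members called higher and 2 lower, and a median of 0.52 beside -0.03 over all genes. Il2rb, the beta chain shared with the IL-15 receptor, was at 52360, 37917 and 39568 in Treg and 2953, 2576 and 3305 in naive cells (log2 difference 3.87, SE 0.12, adjusted p = 3.3e-07). Socs2, an inhibitor of cytokine signalling that STAT5 induces, was at 10530.3, 9206 and 7734 against 90.1, 122 and 193 (log2 difference 6.14, SE 0.24, adjusted p = 8.59e-07). Cish, another inhibitor of this family, was at 24527, 23519 and 22638 against 2875, 1819.9 and 2225 (log2 difference 3.38, SE 0.25, adjusted p = 2.56e-05). None of the Treg values of these genes overlapped with a naive value.

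On the side of the cytokine itself the difference ran the other way. Il2 was at 68.1, 26.6 and 76.6 in Treg cells, where 1 of 3 arrays detected it, and at 86.5, 394 and 533 in naive T cells (log2 difference -2.34, SE 0.57, adjusted p = 0.0183). The naive array of slide 1 was the lowest of the 3 and lay near the Treg values, and without slide 1 the difference was -3.34. With the naive array of slide 1 as the only naive sample it was -0.86, with an adjusted p of 0.467. The call was also lost without slide 2 (-1.57, adjusted p = 0.173) and without slide 3 (-2.12, adjusted p = 0.139). Il7r, which carries the survival signal of resting T cells, was at 13251, 8234 and 9316 in Treg and 44399.8, 35415 and 35284 in naive cells, 3.79-fold lower in Treg cells (log2 difference -1.92, SE 0.27, adjusted p = 0.00116), and its groups did not overlap.

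Other cytokine receptors differed in a few members, 5 called higher and 1 lower of 25 tested, with a median of 0.12. Il1rl1, encoding the IL-33 receptor ST2, was at 3522, 2533 and 2509 in Treg cells and detected on no naive array (44.5, 92.2 and 134), at least 34.4-fold (log2 difference 5.11, SE 0.32, adjusted p = 1.19e-05). Il1r2, the decoy receptor for IL-1, was at 5001, 1600.3 and 1122 against 55.2, 183 and 89.1 (log2 difference 4.43, SE 0.59, adjusted p = 0.000761), with the slide 1 Treg array well above the other 2. Il12rb1, a chain shared by the IL-12 and IL-23 receptors, differed by 2.31 (SE 0.13), and Il10ra, the ligand-binding chain of the IL-10 receptor, by 1.23 (SE 0.10). Tgfbr3, the TGF-beta co-receptor betaglycan, was lower in Treg cells, at 1761, 1573 and 1904 against 10020.2, 8008 and 8653 (log2 difference -2.35, SE 0.19, adjusted p = 4.53e-05).

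Among TNF receptors 3 of 14 tested genes were called, all higher in Treg cells, beside 4.87% of all tested genes called higher. The list median was 0.25. Tnfrsf4, encoding the costimulatory receptor OX40, was at 104153, 83064 and 89154 against 5762, 6775 and 6903 (log2 difference 3.83, SE 0.15, adjusted p = 7.42e-07). Tnfrsf18 was at 41290.1, 48502 and 48206 against 11877, 13481 and 14149.6 (log2 difference 1.80, SE 0.12, adjusted p = 1.38e-05), so naive T cells carried a clear signal of it as well. Tnfrsf1b, the TNF receptor 2 gene, differed by 1.57 (SE 0.28, adjusted p = 0.00429). Of 22 tested TNF ligands and NF-kB genes 4 were called, again all higher: Tnfsf11 (RANKL, 2.01), Tnfsf14 (LIGHT, 1.72), Lta (lymphotoxin alpha, 1.56) and Tnf (1.08, adjusted p = 0.0134). Tnf was not called without slide 1 (0.83) or without slide 3 (adjusted p = 0.0896).

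Of the suppressor effector genes 13 of 16 tested were called higher and none lower, with a median of 3.96. Where probes had to be detected on all 6 arrays, 6 were called. Gzmb, the cytotoxic protease granzyme B, was at 6767, 6171 and 1823 in Treg cells, lowest at d25, and was detected on no naive array (54.8, 86.2 and 87.8), at least 50.7-fold (log2 difference 5.83, SE 0.41, adjusted p = 2.21e-05). Penk, which encodes the precursor of the enkephalin peptides, was at 6134, 3448 and 3659 against 154, 121 and 53.7 (log2 difference 5.41, SE 0.47, adjusted p = 7.04e-05). Entpd1, the ectoenzyme CD39, was at 470.4, 398 and 498 and at the floor of 20 on all naive arrays, at least 5.98-fold. Its log2 difference was 4.50 (SE 0.24, adjusted p = 4.34e-06), and 2.18 with the floor at 100. Its partner in the breakdown of extracellular ATP to adenosine, Nt5e (CD73), was also higher, at 6096, 6852 and 5950.3 against 1063, 1201 and 1288 (log2 difference 2.41, SE 0.22, adjusted p = 8.9e-05).

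Among cytokine genes Il2 was the member called lower. Of 12 tested, 5 were called higher and 1 lower, and 10 of the 26 genes of the list were below background on all 6 arrays. Where probes had to be detected on all 6 arrays, 3 were called. Il10, an anti-inflammatory cytokine, was at 1211, 501 and 193 in Treg cells and detected on no naive array (37.4, 20 and 20), at least 6.45-fold (log2 difference 4.31, SE 0.74, adjusted p = 0.00337), with the slide 1 Treg array the highest and the d25 array the lowest, and the call was lost without slide 2 (adjusted p = 0.0705) and with the floor at 100 (2.29, adjusted p = 0.0596). Ebi3, a subunit of IL-27 and IL-35, was at 9869, 5464 and 4713 against 199, 361 and 317 (log2 difference 4.48, SE 0.29, adjusted p = 1.39e-05). Csf1, the macrophage growth factor, differed by 2.78 (SE 0.17). Ifng, encoding interferon gamma, was at 206, 119 and 325 in Treg cells and detected on no naive array, at least 2.63-fold higher (log2 difference 2.38, SE 0.32, adjusted p = 0.000848), a call that was lost with the floor at 100 (1.0, adjusted p = 0.0911).

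**Figure D2:**
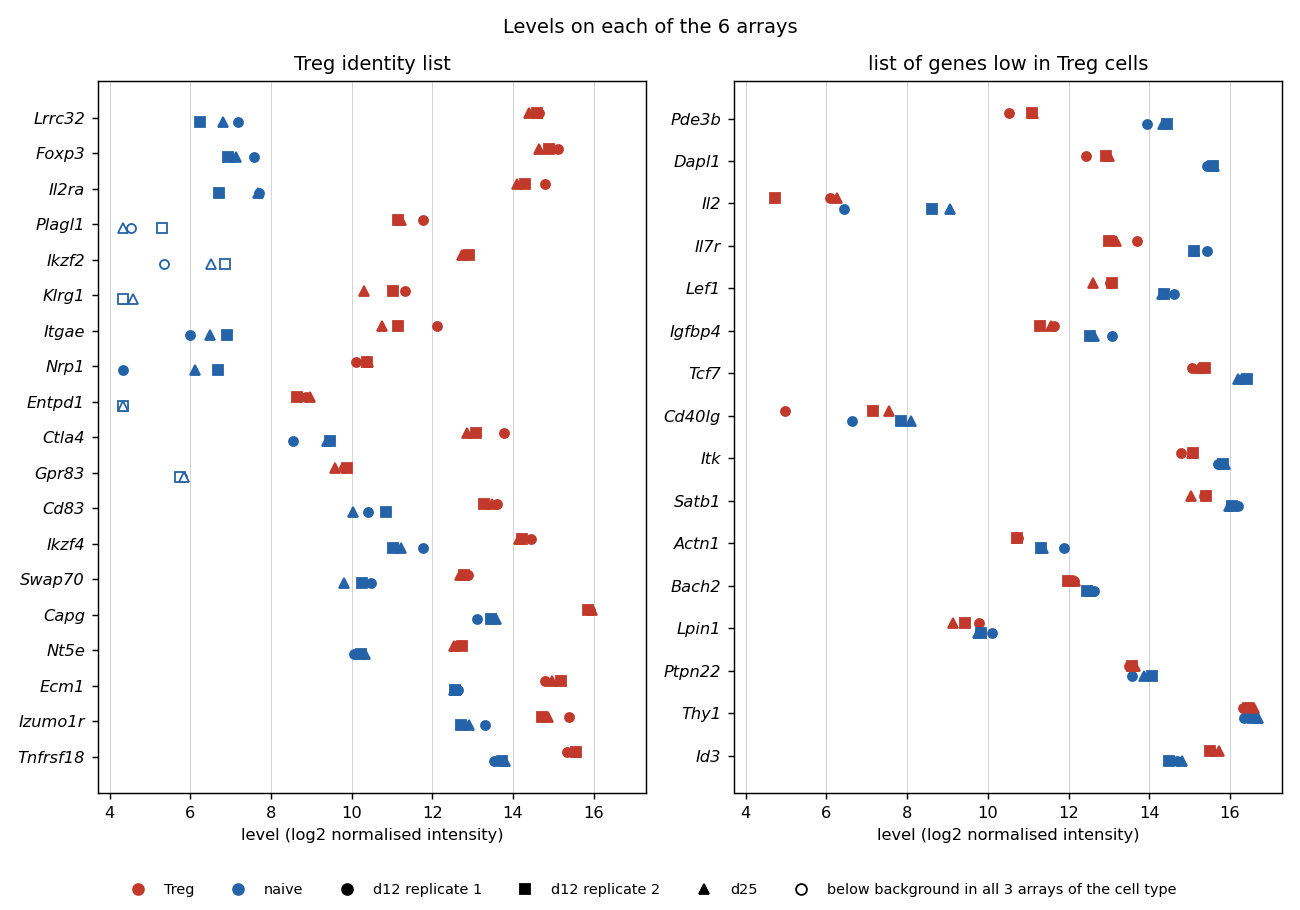
Log2 normalised intensity (x axis) of each tested gene of the Treg identity list (left) and of the list of genes low in Treg cells (right) on the 3 Treg arrays (red) and the 3 naive arrays (blue), with the marker shape giving the slide and open symbols for genes below background on all 3 arrays of that cell type. The groups are separate for all 19 genes of the identity list, while Il2 on the naive array of slide 1 (intensity 86.5) lies near the Treg arrays (26.6 to 76.6).

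Receptors that restrain T cells were part of the same picture, with 10 of 25 tested costimulatory and inhibitory receptors called higher, none lower and a median of 0.43. Klrg1, a lectin-like inhibitory receptor of differentiated lymphocytes, was at 2539, 2075 and 1256 in Treg cells and at or near the floor in naive cells (20, 20 and 23.8), at least 24.7-fold (log2 difference 6.47, SE 0.35, adjusted p = 4.97e-06). Ctla4, which withdraws CD80 and CD86 from antigen-presenting cells, was at 13909, 8617 and 7398 against 372, 709.5 and 669 (log2 difference 4.10, SE 0.37, adjusted p = 8.42e-05). Tigit, a receptor for CD155, was at 3168, 1132 and 691 against 99.5, 155 and 56.04 (log2 difference 3.83, SE 0.39, adjusted p = 0.000157). In each of the 3 the slide 1 Treg array was the brightest and the d25 array the dimmest. Lag3, which binds MHC class II, differed by 1.99 (SE 0.31).

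Pdcd1, encoding PD1, is named because both fractions were gated as PD1- or PD1lo, a choice made after its values were seen. Its transcript was at 4004, 3025 and 3642 in Treg and 1296, 1514 and 1527 in naive cells (log2 difference 1.29, SE 0.20, adjusted p = 0.00207). Within the PD1- gate the 3 Treg arrays thus all lay above the 3 naive arrays.

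Among transcription factors 16 of 54 tested were called higher and 4 lower, with a median of 0.06. Besides Foxp3, Ikzf2 and Plagl1 the largest was Zbtb32, a zinc finger repressor, at 539, 370.2 and 401 in Treg cells and detected on no naive array (21.3, 62.9 and 29.2), at least 5.68-fold (log2 difference 3.66, SE 0.37, adjusted p = 0.00015). The factors called lower were Lef1, Tcf7, Eomes and Id2. Lef1, a Wnt pathway factor of young T cells, was at 8392, 8592 and 6177 in Treg and 25097, 20979 and 20206 in naive cells (log2 difference -1.53, SE 0.15, adjusted p = 0.00012). Tcf7, encoding its relative TCF-1, was at 34159.5, 42878 and 38692 against 80619, 87279 and 74805 (log2 difference -1.07, SE 0.11, adjusted p = 0.000183). The T-box factor Eomes differed by -1.54 (SE 0.43, adjusted p = 0.0336) and Id2, an inhibitor of E proteins, by -1.08 (SE 0.19, adjusted p = 0.00412). Without slide 2 both calls were lost, Eomes at -1.51 (adjusted p = 0.198) and Id2 at -0.97 (adjusted p = 0.0911), as they were without slide 3 (adjusted p = 0.0550 and 0.0564). The call of Eomes was also lost when any of 5 of the 6 arrays was left out (adjusted p = 0.0692 to 0.126), and Id2 fell under a size of 1 without the Treg array of slide 2 (-0.99) or slide 3 (-0.91).

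Genes that guide migration were higher in Treg cells in 12 of 24 tested cases and lower in none, with a median of 1.14. Where probes had to be detected on all 6 arrays, 4 were called. Rgs1, which dampens chemokine receptor signalling, was at 21164, 23439.5 and 21081 in Treg and 333, 911 and 663 in naive cells (log2 difference 5.22, SE 0.24, adjusted p = 1.83e-06), and Rgs16, of the same family, differed by 3.62 (SE 0.35). Ccr6, the receptor for CCL20, was at 6850, 4387 and 4518 against 273, 730.4 and 469 (log2 difference 3.50, SE 0.34, adjusted p = 0.000131). Ccr3, an eotaxin receptor, was dim in Treg cells (327, 307 and 189) and not detected in naive cells, at least 3.52-fold (log2 difference 3.49, SE 0.27, adjusted p = 3.43e-05). Of the genes that keep cells circulating through lymph nodes, 3 that did not pass the test were Ccr7, the receptor for CCL19 and CCL21, which differed by -0.35 (95% interval -0.80 to 0.09), S1pr1, the receptor used to leave the node, by -0.13 (-0.57 to 0.30), and their regulator Klf2 by -0.09 (-0.80 to 0.61). Each of these intervals reached less than 1 log2 unit to either side.

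Adhesion molecules showed 6 genes called higher and 1 lower of 20 tested, with a median of 0.41, and 4 calls where probes had to be detected on all 6 arrays. Itgae, the alpha chain of the integrin CD103 that binds E-cadherin, was at 4463, 2284 and 1717 in Treg and 63.8, 120.2 and 90.01 in naive cells (log2 difference 4.88, SE 0.39, adjusted p = 4.39e-05). Nrp1, the semaphorin co-receptor neuropilin 1, was at 1104, 1332 and 1346 against 20, 104 and 69.8 (log2 difference 4.58, SE 0.32, adjusted p = 1.96e-05). Enzymes that build selectin ligands were higher too, Gcnt1 by 3.01 (SE 0.49) and Fut7 by 2.48 (SE 0.38), whereas the sialyltransferase St3gal6 was lower (-1.42, SE 0.15). For both Gcnt1 (60.05, 272 and 209) and Fut7 (191, 593 and 362) the naive array of slide 1 was the lowest. Without slide 1 the differences were 2.04 for Gcnt1 and 1.74 for Fut7.

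The largest differences on the lower side belonged to genes of several families. Pdlim4, a cytoskeletal PDZ and LIM domain protein, was at 517, 469 and 459.7 in Treg and 22072, 22229 and 21370.2 in naive cells (log2 difference -5.51, SE 0.15, adjusted p = 1.71e-07); the means were 482 ± 30.9 and 21890 ± 457 (SD, n = 3). Ggt5, a glutamyltransferase that metabolises leukotrienes, was not detected in Treg cells (20, 35.8 and 20) and was at 895, 1069 and 1038 in naive cells, at least 15.7-fold lower (log2 difference -5.36, SE 0.18, adjusted p = 3.3e-07). Adamts14, a procollagen protease, was likewise detected on no Treg array (39.98, 47.5 and 30.3) and at 933, 1051 and 939 in naive cells, at least 12.1-fold lower. Every naive value of these 3 genes was above every Treg value.

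Lypd6b, a Ly6 domain protein, was at 282, 327 and 429 against 7231, 8062 and 8193 (log2 difference -4.52, SE 0.23, adjusted p = 3.7e-06), and App, the amyloid precursor protein, at 358, 408 and 459 against 5061, 6546 and 5317 (log2 difference -3.79, SE 0.24, adjusted p = 1.19e-05). The same leading genes on the lower side included Abhd15 (-4.54), Lrrc75b (-3.79) and Nacc2 (-3.78). Elovl7, a fatty acid elongase, and Cxcr1, a chemokine receptor better known from neutrophils, were detected on no Treg array and were at least 8.14-fold and 5.87-fold lower, with naive levels of 369, 628 and 631 and 489, 478 and 329. The leading genes on the higher side that have not yet been described were Dnah7a, a dynein chain whose probe also matches its near-identical neighbour (named Dnahc7b on the array), at 2073, 1405 and 1997 against the floor in naive cells, at least 23.7-fold, and the predicted gene Gm4956 at 52249, 45634 and 39398 against 2915, 525 and 412.

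Of 16 genes listed as low in Treg cells 7 were called lower and none higher, with a median of -0.90. Pde3b, a phosphodiesterase that breaks down cyclic AMP, was at 1478, 2202 and 2236 in Treg and 15836, 22110.4 and 20702 in naive cells (log2 difference -3.32, SE 0.14, adjusted p = 1.35e-06), which was 9.99-fold lower with no overlap. Among naive T cell markers 5 of 10 were called lower, with a median of -0.94. They were Il7r, Lef1, Tcf7, the death-associated protein-like gene Dapl1, at 5498, 7750.1 and 8169 against 43931, 49283 and 49498 (log2 difference -2.76, SE 0.23, adjusted p = 5e-05), and the growth factor binding protein gene Igfbp4 (-1.24, SE 0.17). The 5 others included Ccr7, S1pr1 and Klf2 with the values above, so part of the list was lower.

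Purine and cyclic nucleotide genes had 6 higher and 2 lower calls among 24 tested, with a median of 0.27. P2rx7, the ATP-gated channel of T cells, was at 12190, 13797 and 12707 in Treg and 638, 1726 and 1641 in naive cells (log2 difference 3.40, SE 0.25, adjusted p = 2.58e-05). Cd38, an enzyme that consumes NAD, differed by 1.92 (SE 0.32). Besides Pde3b, Pde7a was lower (-1.03, SE 0.10).

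Other lists held 0 to 2 calls each, beside 6.99% of all tested genes. None of 29 ribosomal protein genes was called and their median was 0.00. Antigen receptor signalling had 1 call among 35 tested genes, Themis, a thymocyte selection adaptor, at 3036, 3232 and 3077 in Treg and 7022, 7799 and 7899 in naive cells (log2 difference -1.28, SE 0.08, adjusted p = 1.19e-05), with a median of -0.09. The quiescence list had 1 of 20, Pik3ip1, an inhibitor of PI3K, at -1.0 (SE 0.18). Of 30 interferon response genes 1 was called in each direction, the GTPase gene Gbp3 (2.43, SE 0.10) and the oligoadenylate synthetase gene Oas2 (-2.01, SE 0.40). The 8 GIMAP genes had 1 call, Gimap7 (1.09), and the 9 Ly6 genes had none (median 0.27).

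Metabolic and survival genes contributed single members. In glycolysis 3 of 21 were called higher and 1 lower. Hk2, an inducible hexokinase, was at 479, 432 and 437 in Treg cells and detected on no naive array, at least 5.91-fold (log2 difference 3.0, SE 0.30, adjusted p = 0.000144). The lactate exporter Slc16a3 (1.40) and the glucose transporter Slc2a3 (1.17) were higher, and Pdk1, a kinase that restrains the use of pyruvate in mitochondria, was lower (-1.16). Of 12 BCL-2 family genes 2 were called, and they act in opposite directions: Pmaip1 (NOXA), which favours death, was at 648, 499 and 561 in Treg cells and detected on no naive array, at least 7.46-fold, and Bcl2l1, whose long product BCL-xL protects cells, differed by 1.37 (SE 0.15).

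Cell cycle genes were higher in Treg cells in 14 of 29 tested cases and lower in none, with a median of 0.92. Birc5, encoding the mitotic protein survivin, was at 8357, 4578 and 2009 in Treg and 787, 1505 and 599 in naive cells (log2 difference 2.25, SE 0.30, adjusted p = 0.000756). Ube2c, a ubiquitin conjugating enzyme of mitosis, was at 4148, 2171 and 856 against 406, 640.1 and 185 (log2 difference 2.44, SE 0.26, adjusted p = 0.00021). Tk1, a thymidine kinase of S phase, differed by 2.35 (SE 0.22) and Nusap1, a spindle protein, by 2.21 (SE 0.30). In Birc5 and Ube2c the Treg arrays differed widely among themselves, highest on slide 1 and lowest at d25, but each stayed above the naive array of its own slide. Without slide as a block 7 of the 29 passed.

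**Figure D3:**
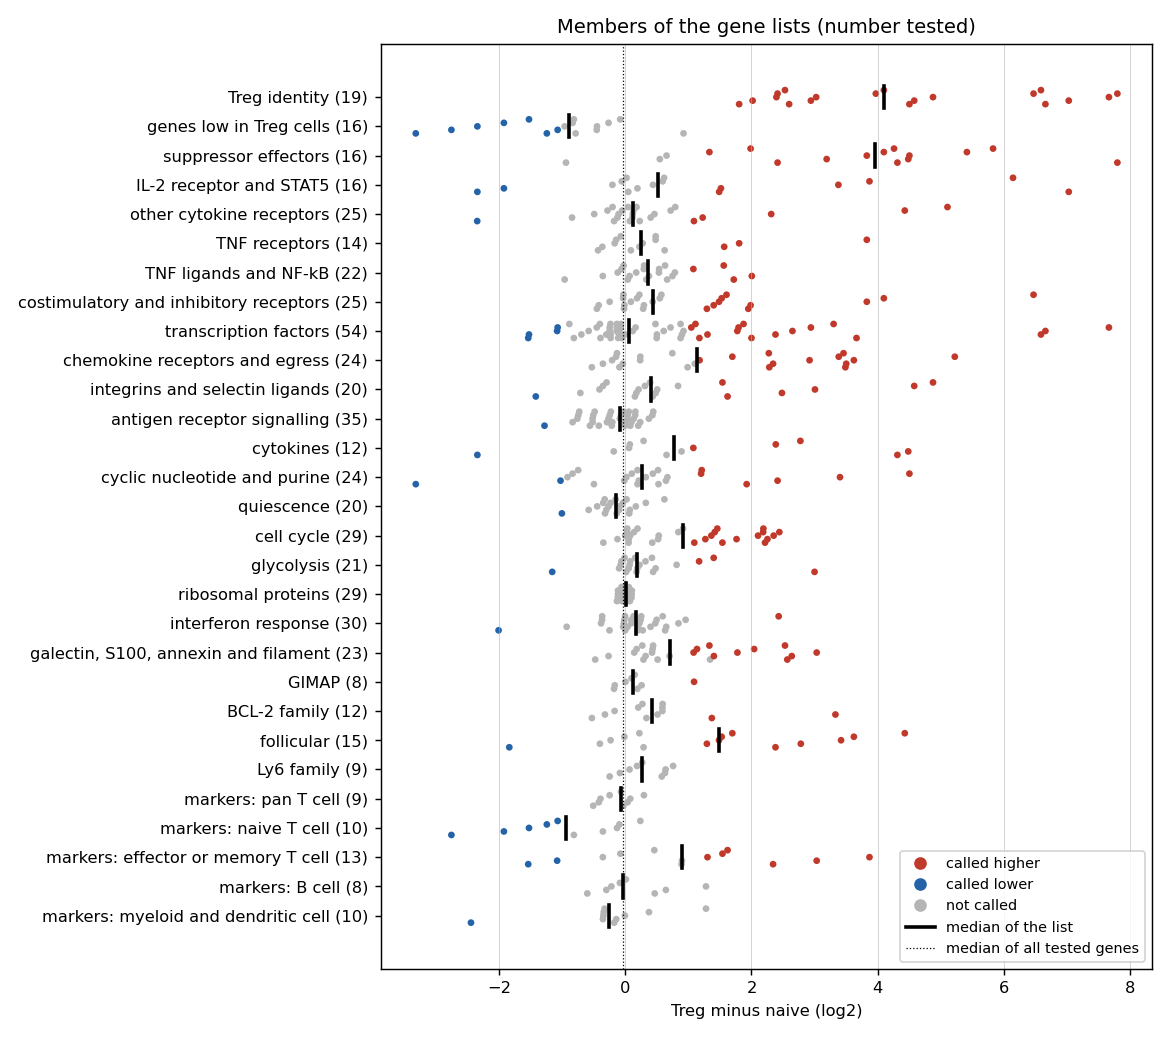
Log2 difference Treg minus naive (x axis) of every tested member of the gene lists (rows, number tested in brackets), with called genes in red (higher) or blue (lower), others in grey, black bars for list medians and a dotted line for the median of all tested genes (-0.03). Treg identity (median 4.10) and suppressor effectors (3.96) lie far to the right of the ribosomal protein genes (0.00), and the naive markers (-0.94) to the left.

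Markers of effector and memory cells had 6 members called higher among 13 tested and 2 called lower, Eomes (-1.54) and Id2 (-1.08), described above. The markers had a median of 0.90 and depended on the slide. Their median was 2.37 on slide 1, 0.55 on slide 2 and 0.58 on slide 3, and 5 members were called without slide 2. S100a4, a calcium-binding protein of migrating cells, was at 59549, 39356 and 34159.5 in Treg and 1861, 8303 and 9447 in naive cells (log2 difference 3.03, SE 0.54, adjusted p = 0.00408). The difference was 2.05 without slide 1 and 4.85 with the naive array of slide 1 as the only naive sample.

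Cxcr3, the receptor for interferon-induced chemokines, was at 10369, 7649 and 10182 against 651, 2779 and 3426 (log2 difference 2.34, SE 0.41, adjusted p = 0.00369), and at 1.52 without slide 1. Cd44, the adhesion receptor of experienced T cells, was at 6769.5, 4483 and 4154 against 1308, 1687 and 1964 (log2 difference 1.62, SE 0.20, adjusted p = 0.000476), and at 1.25 without slide 1. The naive array of slide 1 was the lowest of the naive arrays in each of these 3 genes, and the Treg array of slide 1 was the highest of the Treg arrays. No naive value reached a Treg value.

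The list of galectins, S100 proteins, annexins and intermediate filaments moved in the same way, with 10 of 23 called higher and none lower, a median of 0.70, and slide medians of 0.96, 0.44 and 0.57. S100a6 was at 40264, 27066 and 17463 against 1634, 7832 and 6160.2 (log2 difference 2.64, SE 0.51, adjusted p = 0.00604), and at 1.65 without slide 1. Capg, an actin-capping protein, was at 61724, 59403 and 63944 against 8855, 11199.6 and 12248 (log2 difference 2.53, SE 0.11, adjusted p = 1.47e-06), and Anxa4, a membrane-binding annexin, differed by 2.57 (SE 0.23). Of the 23 genes 17 had their lowest naive value on slide 1, and 6 genes were called without the naive array of that slide or without slide 2.

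Over all 554 genes called higher the slide medians were 2.24, 1.60 and 1.67, and 371 of them (67.0%) had their largest difference on slide 1, beside 45.5% of all tested genes. The 241 genes called lower had slide medians of -1.53, -1.40 and -1.42, and 125 of them (51.9%) had their largest difference on slide 1. The Treg identity list had slide medians of 4.56, 3.68 and 3.74. Slide 1 also had the larger RNA input, 50 ng against 40 ng, and was scanned on another day than slides 2 and 3, and the part of these in the larger differences was not tested.

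**Figure D4:**
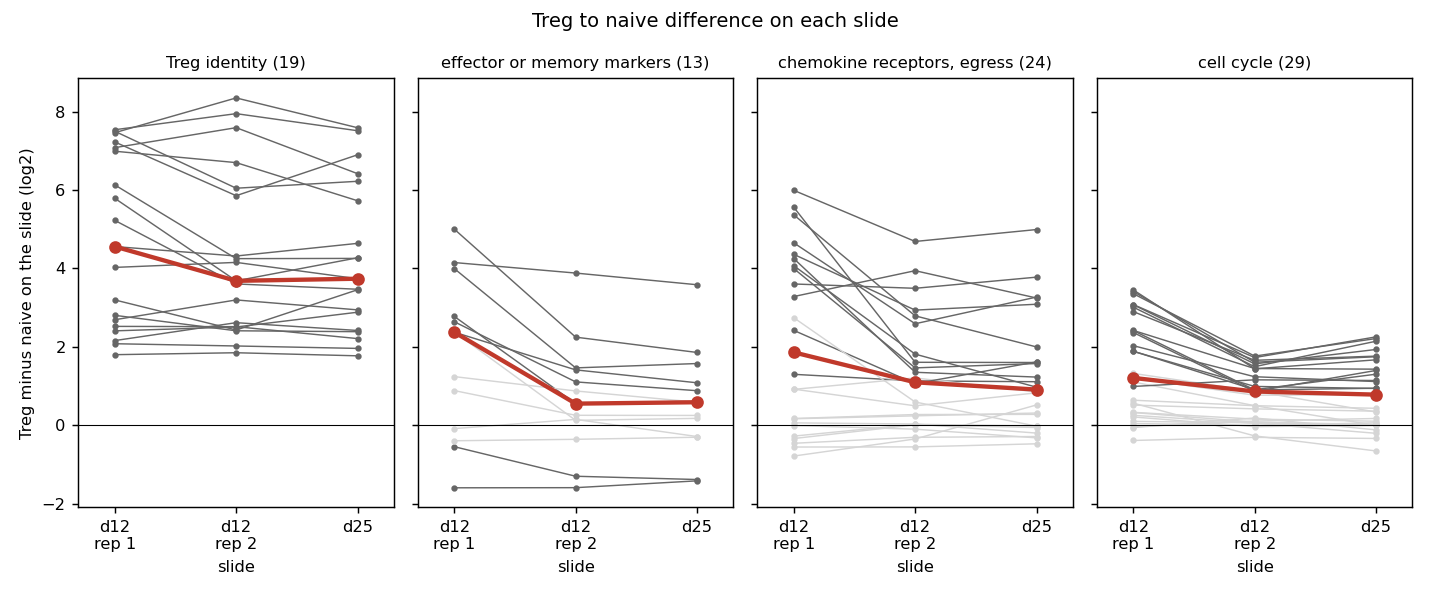
Log2 difference Treg minus naive (y axis) on each slide (x axis: d12 replicate 1, d12 replicate 2, d25) in 4 gene lists, with 1 line per tested gene, dark if called and pale if not, and the list median in red. The median of the effector or memory markers drops from 2.37 on slide 1 to 0.55 and 0.58, and that of the Treg identity list goes from 4.56 to 3.68 and 3.74.

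Whether the difference between Treg and naive T cells was the same at d25 as at d12 was asked by the contrast of slide 3 against slides 1 and 2, with 1 array of d25 per cell type. By limma 0 genes were called (0%), 416 of the 17293 probes having an unadjusted p below 0.05. The largest values belonged to Hbb-bt, a haemoglobin chain, with slide differences of -1.90, -1.10 and 3.50 (contrast 5.01, SE 1.24, adjusted p = 1.00), Mycl, a MYC family gene, with -0.84, -0.88 and 3.47, and AA408650 with -1.06, -0.73 and 3.05. Mycl was also uneven between the d12 arrays, at 91.8, 858 and 7095 in Treg and 164, 1580.1 and 641 in naive cells, so its arrays followed neither the cell type nor the day. In simulated data of the same size the contrast found 59% of differences of 2 log2 units and 35% of those of 1.5, so at this size many such differences would not be called.

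A further comparison asked how far the difference between the Foxp3+ and Foxp3- fractions outside the follicular gate, Treg minus naive, was the same as the difference inside it, TFR minus TFH. Both were taken on the same slides and share no array. Among the genes tested between Treg and naive cells, TFR and TFH cells differed in 846 (7.43%). Genes that would pass the detection filter in TFR or TFH cells alone were not tested. The counts for that pair and for the contrast below are therefore not full ones. In both comparisons 359 genes were called, 45.2% of the 795 and 42.4% of the 846. Of these, 245 were higher and 76 lower in the regulatory cells of both pairs, and 38 changed direction. The difference between the differences, tested by its own contrast, was called for 824 genes (7.24%), of which 373 were among the 795 (46.9%). The 795 were picked by a large Treg minus naive difference, which is itself a part of the contrast. The share of 46.9% is therefore a description and cannot be set against the 7.24%.

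This contrast was called for 8 of the 19 tested Treg identity genes, 7 of them with a positive value. The Treg level enters it with a plus sign, so these counts are a description. Il2ra was called, at 7.03 in Treg minus naive and 4.64 in TFR minus TFH (contrast 2.39, adjusted p = 0.00201). For several other core Treg genes the contrast was not called. Foxp3 differed by 7.66 in Treg minus naive and by 8.98 in TFR minus TFH (contrast -1.31, adjusted p = 0.056), Lrrc32 by 7.80 and 7.51 (contrast 0.29, SE 0.36), and Klrg1 by 6.47 and 6.54 (contrast -0.07, SE 0.50). These sizes rest partly on signals below background or at the floor. Klrg1 was detected on no naive array and 2 TFH arrays, Lrrc32 on 1 and 2, and Foxp3 on 1 TFH array. The contrast of Klrg1 therefore does not show equal differences. Ikzf2 and Ctla4 separated Treg from naive cells more than TFR from TFH cells. Ikzf2 differed by 1.29 in TFR minus TFH (contrast 5.30, adjusted p = 0.000119), with mean levels of 16029 in TFR and 6191 in TFH cells. Ctla4 differed there by 0.65 (contrast 3.45, adjusted p = 0.00271), with 13710.4 and 9177. For both genes the TFH level was far above the naive level given earlier.

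Every tested gene of the follicular list differed between the pairs. Of its 15 tested genes 9 were called higher and 1 lower in Treg against naive cells (median 1.49, and 6 calls where probes had to be detected on all 6 arrays). The TFR minus TFH median was -1.31, and the contrast was called for all 15, each time with a positive value. The list was drawn up for follicular cells, and the TFH level enters this contrast with a plus sign, so the count is a description. Ascl2, a helix-loop-helix factor of follicular T cells, was at 307, 225 and 493 in Treg cells and detected on no naive array, at least 3.79-fold higher, and differed by -4.85 in TFR minus TFH, with mean levels of 1519 and 43083. Bmp7, a bone morphogenetic protein, was at 4185, 2801 and 3193 in Treg and 143, 413 and 519 in naive cells (log2 difference 3.42, SE 0.37, adjusted p = 0.00022) and differed by 0.02 in TFR minus TFH. Sostdc1, an antagonist of BMP and Wnt signals, was the member called lower, at 57.3, 63.8 and 49.3 against 112, 312 and 235 (log2 difference -1.84). Its contrast was positive because TFR minus TFH was lower still, at -5.98, with a mean of 73289 in TFH and 1134 in TFR cells.

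Of the 38 genes that changed direction, 24 were higher in Treg than in naive cells and lower in TFR than in TFH cells, among them P2rx7 (3.40 and -1.33), Ascl2, Tex33, Slc43a1 and Pdcd1. The other 14 ran the other way, among them Il7r (-1.92 and 1.49). Il7r had mean levels of 38367 in naive, 10267 in Treg, 6875 in TFR and 2503 in TFH cells. Naive markers as a list were lower in the contrast for 8 of 10 genes, Ccr7, S1pr1 and Klf2 among them, which did not pass the test between Treg and naive cells. The naive level enters this contrast with a minus sign, so this count is a description as well.

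**Figure D5:**
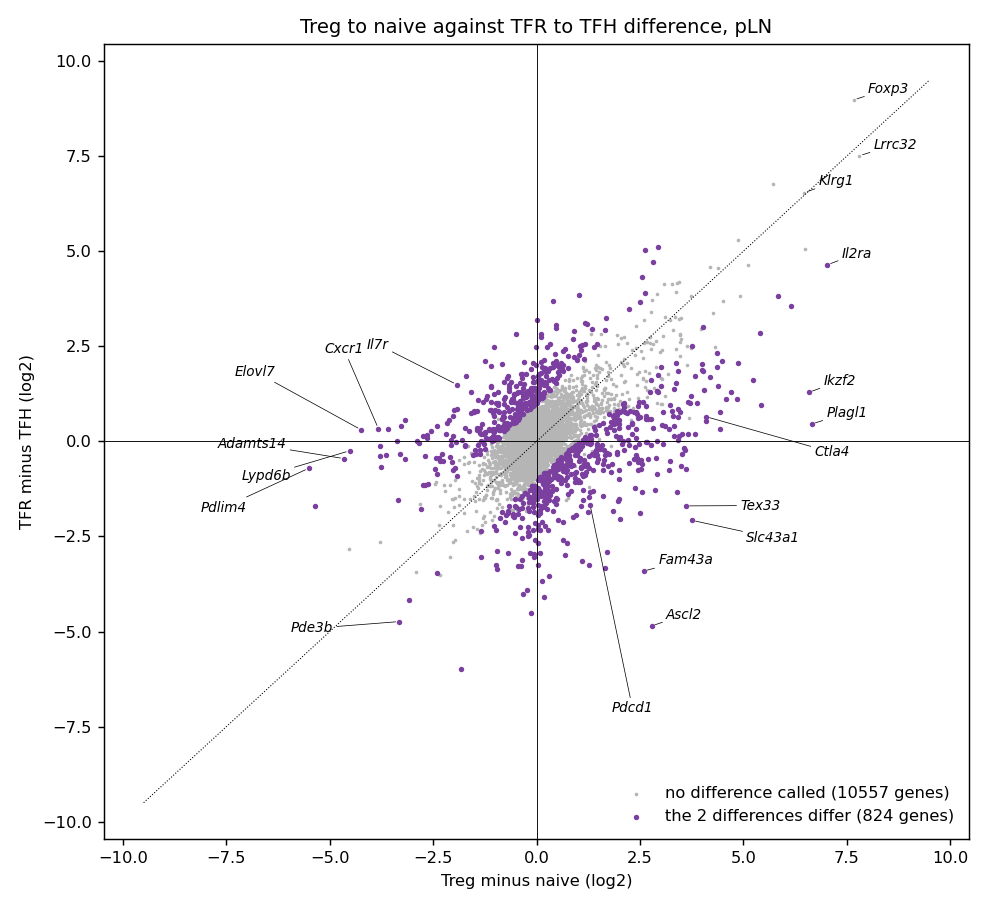
Log2 difference Treg minus naive (x axis) against TFR minus TFH (y axis), 1 point per tested gene, with the 824 genes whose differences differed in purple and equal differences on the dotted line. Foxp3 (7.66 and 8.98) lies near that line, Ikzf2 (6.59 and 1.29) far below it, and Ascl2 (2.78 and -4.85) to the right of 0 and below it.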

How the data were processed

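RNA of each sorted pool was amplified once, labelled with Alexa Fluor 555 and hybridised to a 1-colour Agilent array with 39429 probes in 4 copies. The authors deposited the scanner output of Agilent Feature Extraction 10.7.3.1, with an intensity (processed signal) per spot, and a series matrix of normalised intensity values of the same arrays on a linear scale, which is used as an alternative only. From the intensity values, spots marked as outliers, spots beyond 1.42 interquartile ranges and spots with a pixel coefficient of variation above 0.5 were left out, following the study's methods. The rest were averaged per probe (geometric mean), quantile normalised over all 20 arrays, set to 1500 at the 75th percentile, raised to 20 where below it, and turned to log2. Quantile normalisation gives all arrays the same distribution, so a global difference in RNA amount cannot be seen. A probe counted as detected with at least 3 spots well above background.

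Probes detected on all 3 arrays of Treg or naive cells (17293) were fitted with limma 3.58.1 in R 4.3.3 over the 12 pLN arrays, with cell type and slide as terms and moderated variances. P-values were adjusted by Benjamini-Hochberg over all tested probes and are two-sided. Each gene was represented by its brightest tested probe (11381 genes, 2985 of them with several tested probes). The tested probes of a gene had differences of opposite sign for 3 called genes, and their sizes were not compared in this count. Probes were named from the array annotation, and 27597 through a RefSeq accession of the reference table. The labels carry no replicate number. Pairing came from the slide: deviations from the cell type means correlated between Treg and naive arrays of the same slide (r = 0.73, 0.72 and 0.65 over the 17293 probes) and between -0.54 and 0.06 on different slides. With 3 arrays per cell type the deviations of a probe cancel out, so high values on the same slide draw the others down. The gap is partly arithmetic and is a description. Nothing in the sources used here ties a pool to single animals, and the number of arrays limits the precision.

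The members and gene lists were chosen with earlier results of these data known. Genes were named as the 10 called genes with the largest difference in each direction that reached 1 on every slide, up to 4 called members of each list in each direction, and the 5 leading genes in each direction of the contrasts or, with none called, the 3 largest. The alternatives were other normalisations, filters, array sets and blocks, leaving out arrays or slides, and a one-way test with Tukey comparison. The study names a test of that kind. On simulated data with 200 changed probes the fit recovered 97% of changes of 1.5 log2 units and 100% of changes of 2 between Treg and naive cells, with 2 false calls. Some genes are not reported here.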

Additional observations from a re-analysis of the deposited data

Results flagged for a closer look

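The difference between Foxp3+ and Foxp3- cells outside the follicular gate (Treg minus naive) differed from that inside it (TFR minus TFH) in 824 genes. This was tested by limma as a contrast of both, among the genes detected in Treg or naive cells. The 5 genes with the largest positive contrast were Ascl2 (7.64), Plagl1 (6.20), Fam43a (6.0), Slc43a1 (5.84) and Tex33 (5.31), all on the log2 scale. None of these genes was detected on a naive array, so sizes and order depend on the floor: with the floor at 100 the contrasts were 6.55, 4.28, 4.29, 3.51 and 3.05, and Treg minus naive fell under 1 for Fam43a (0.88). The 3 tested probes of Plagl1 ranged from 0.20 to 6.68 in Treg minus naive. TFR cells were below TFH cells in Ascl2, Fam43a, Slc43a1 and Tex33. The 5 most negative were Pdlim4 (-4.80), Elovl7 (-4.55), Lypd6b (-4.27), Adamts14 (-4.20) and Cxcr1 (-4.16), whose mean level was higher in naive T cells than in the other 3 cell types. Elovl7, Adamts14 and Cxcr1 were detected on no Treg array, and with the floor at 100 their contrasts were -2.40, -3.28 and -2.09.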

How the results depend on the processing

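In all, 1045 probes were called between Treg and naive cells. Only probes detected on all 6 arrays, which leaves out genes absent from 1 cell type, gave 633. A one-way test with Tukey comparison gave 576 (the cause was not tested). The study names this kind of test, but here it was run on the pLN arrays alone, with the call rule used above. Without the slide as replicate block 913 were called, and the contrast with TFR minus TFH went from 1067 to 747, so neither count moved by over 1.5 times, while called cell cycle genes went from 14 to 7 and GIMAP genes from 1 to 0 without the block, and probes with an unadjusted p under 0.05 from 6070 to 3484 (5189 to 2823 for that contrast). Leaving out single arrays gave 935 to 1079, and leaving out slides 929 to 1005 (764 to 892 for the contrast with TFR minus TFH). The d25 contrast had 0 calls except with no filter on detection (69), and leaving out a d12 slide gives it no residual degrees of freedom. Other normalisations gave 800 to 1086.

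Of 98 named genes 66 kept their call or its absence under every alternative in which they were tested, which for genes not detected in 1 cell type leaves out the filter on all 6 arrays. Klf2, not called, ranged from -0.26 to 0.028 as single arrays were left out, and changed sign without the d25 naive array. Leaving out 1 array or slide ended the calls of 11 genes. Beyond those given above, Tcf7 (-0.96 and -0.99), Pik3ip1 (-0.87) and Gimap7 (0.88) then fell under a size of 1 without an array or the whole of slide 1, as did Pde7a (-0.98) without the d25 Treg array; Oas2 missed the threshold without slide 2 (adjusted p = 0.0600) or slide 3 (0.0722), and Sostdc1 without slide 3 (0.102). Beside the genes given with and without slide 1 above, leaving it out moved the fold by over 1.5 times for Gm4956 (log2 difference 6.51), Il1rl1 (4.51), Il1r2 (3.39), Tnfsf14 (1.13), Itgae (4.25), Nrp1 (3.98) and Bmp7 (2.69), and leaving out another slide did so for Il1r2 (5.08 without slide 2), Gzmb (6.55 without slide 3) and S100a4 (3.62 without slide 3). With only probes detected on all 6 arrays, 11 Treg identity, 6 suppressor and 4 migration genes were called. The one-way test with Tukey comparison called 1 cell cycle gene, 2 of the galectin, S100, annexin and filament list and 2 effector or memory markers. The floor at 100 ended the calls of Il10, Ifng, Sostdc1 and Fam43a, and testing without a detection filter those of Il2, Tnf, Eomes, Oas2 and S100a6 (adjusted p = 0.0501 to 0.156). An added alternative with the naive array of slide 1 as the only naive sample, chosen after seeing the data, gave 1050 probes, and one without the TFR array of high background (268) gave 1031.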
